A study of Mus musculus with 11 samples.

Results

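Binding of the transcription factors RFX1, RFX2 and RFX3 was examined at 9 mouse genes. They encode ciliary small GTPases, proteins that bind or regulate these, lipid-anchored proteins, and carriers of lipid-anchored proteins. The genes were Arl3, Rp2, Arl2bp, Pde6d, Unc119b, Inpp5e, Cys1, Rab28 and Rab23. A ChIP-seq peak was assigned to a gene when its summit, the position of strongest signal, lay inside the gene or within 10 kb of it in the RefSeq annotation of GRCm38. By this rule 9 of the 18008 deposited peaks belonged to the 9 genes, which were set against all 21887 protein-coding genes. Of these peaks 5 came from the RFX1 list, 4 from the RFX3 list and 0 from the RFX2 list.

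The chromatin came from ependymal cells, whose many motile cilia move fluid through the brain ventricles. They were differentiated ex vivo from the lateral brain walls of wild-type OF1 mice labelled P0. Groups were RFX1 ChIP, RFX2 ChIP and RFX3 ChIP (2 samples each), and input chromatin without antibody (2 samples for RFX1, 2 for RFX2 and 1 for RFX3). Each RFX had its own antibody, and the lot of the RFX2 antibody differed between its samples. The samples of an RFX were merged in 1 list of 7440 (RFX1), 1250 (RFX2) or 9318 (RFX3) reproducible peaks, so values below carry no replicate error and no test between conditions could be made. Sequencing depth is unknown, and a missing peak means only that none was called, not that the factor was absent. The files hold no expression values, so the labelled cell type could not be checked against its marker genes.

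Some proteins with a lipid anchor reach the membrane of the cilium on soluble carriers. PDE6D carries prenylated proteins and UNC119 proteins carry myristoylated ones, and the GTP-bound form of ARL3 releases the cargo inside the cilium. RP2 is the GTPase-activating protein that switches ARL3 off. RFX proteins recognise the X-box, a palindrome whose half-site reads GTTGCC, and RFX factors are known regulators of ciliary genes.

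Promoter sequences of GRCm38.p6 are from RefSeq, and all 9 genes matched that table. The 250 bases before the start site are shown 5′ to 3′ along the gene for the 4 genes with a summit inside or within 200 bp of the 300-base promoter window, because these are the bases on which or beside which RFX1 was found. The regions are chr1:33719646-33719895 for Rab23 (plus strand), chr5:41708180-41708429 for Rab28 (minus), chrX:20364231-20364480 for Rp2 (plus) and chr19:46573183-46573432 for Arl3 (minus). Capitals mark the 14 bases closest to the X-box palindrome, the first such site where several tie.
Rab23: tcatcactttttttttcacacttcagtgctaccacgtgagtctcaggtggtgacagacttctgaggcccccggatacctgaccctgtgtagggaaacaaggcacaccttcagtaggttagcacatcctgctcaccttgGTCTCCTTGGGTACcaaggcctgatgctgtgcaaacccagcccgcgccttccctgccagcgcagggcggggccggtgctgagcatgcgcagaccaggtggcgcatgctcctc
Rab28: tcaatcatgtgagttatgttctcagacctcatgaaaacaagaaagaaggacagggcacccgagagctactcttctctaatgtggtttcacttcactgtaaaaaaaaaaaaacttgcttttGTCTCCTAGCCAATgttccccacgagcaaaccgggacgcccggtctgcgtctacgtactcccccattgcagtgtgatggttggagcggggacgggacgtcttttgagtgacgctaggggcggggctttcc
Rp2: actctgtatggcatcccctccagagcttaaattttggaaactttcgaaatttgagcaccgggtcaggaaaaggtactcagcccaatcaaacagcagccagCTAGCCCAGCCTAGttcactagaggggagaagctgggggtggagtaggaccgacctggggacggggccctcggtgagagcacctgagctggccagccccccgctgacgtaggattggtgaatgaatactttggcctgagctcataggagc
Arl3: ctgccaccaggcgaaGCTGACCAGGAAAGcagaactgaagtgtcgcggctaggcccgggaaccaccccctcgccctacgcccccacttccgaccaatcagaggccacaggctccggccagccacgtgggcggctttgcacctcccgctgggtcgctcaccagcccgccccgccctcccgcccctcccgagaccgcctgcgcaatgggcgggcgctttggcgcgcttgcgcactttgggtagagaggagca

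RFX1 peaks lay at the starts of 5 of the 9 genes: Arl3, Rp2, Arl2bp, Rab28 and Rab23. RFX3 peaks were in reach of 4 genes, at the starts of Arl3, Arl2bp and Rab28 and at a distance from Inpp5e. Pde6d, Unc119b and Cys1 had no peak of any list in reach. Of all protein-coding genes, 24.9% had an RFX1 summit in reach, 5.93% an RFX2 summit and 25.3% an RFX3 summit. The members thus had RFX1 in 5 of 9 cases against 24.9%, RFX3 in 4 of 9 against 25.3% and RFX2 in 0 of 9 against 5.93%. These shares were not tested, since the genes were chosen with earlier results of these data known.

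An RFX1 summit lay within 1 kb of a gene end at 5 of the 9 genes, against 9.05% of protein-coding genes. For RFX3 the count was 3 of 9 against 7.94%, and for RFX2 it was 0 of 9 against 2.08%. A summit of any RFX was at an end of 5 members and of 10.1% of protein-coding genes. Among the 5447 protein-coding genes with RFX1 in reach, 36.4% had the summit at a gene end, against 5 of 5 here. The combination of RFX1 and RFX3 without RFX2 occurred at 3 members and at 14.5% of protein-coding genes. RFX1 alone was found at 2 members (Rp2 and Rab23) and at 4.45% of genes, and RFX3 alone at 1 member (Inpp5e) and 4.92% of genes. No list reached 3 members, against 70.2% of genes, and all 3 lists reached 0 members, against 5.87%.

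**Figure D1:**
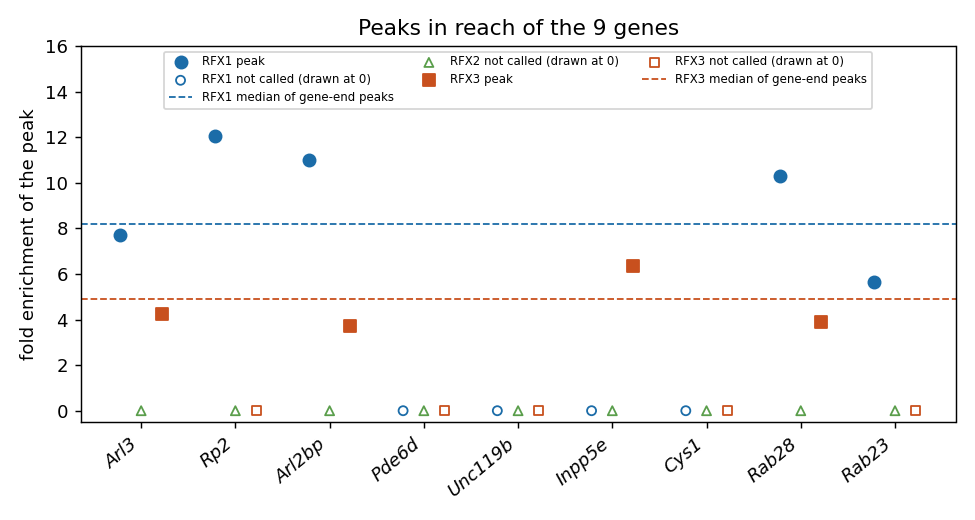
Fold enrichment (vertical axis, a ratio of ChIP signal to background as deposited) of the peaks in reach of each of the 9 genes, with open symbols at 0 for genes without a called peak. RFX1 folds run from 5.63 to 12.05 at 5 genes and RFX3 folds from 3.72 to 6.35 at 4 genes; dashed lines give the medians of peaks at gene ends, 8.21 for RFX1 and 4.91 for RFX3.

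Arl3 and Rp2, the genes of the release GTPase and of the protein that switches it off, each had RFX1 at the start. Arl3 (chromosome 19, 46531109–46573182, minus strand) had RFX1 and RFX3 peaks across its start, with both summits just inside the gene. The RFX1 summit was 74 bp and the RFX3 summit 77 bp downstream of the start site, so they were 3 bp apart. The RFX1 peak had a fold of 7.71 and a −log10 q of 48.3, the deposited q-value of the peak on a −log10 scale (rank 2204 of 7440), and the RFX3 peak a fold of 4.24 and a −log10 q of 32.3 (rank 2792 of 9318). The RFX3 peak, 203 bp wide, lay wholly within the RFX1 peak of 283 bp. Sfxn2, a sideroflexin gene on the opposite strand, begins 143 bp beyond Arl3, and the RFX1 summit was 217 bp from its start. The peak is therefore at the shared start of a divergent gene pair, and the lists do not say which gene it serves.

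Rp2 (chromosome X, 20364481–20405653, plus strand) had an RFX1 peak with the highest fold of the members, 12.05, at 20364355–20364721. Its −log10 q was 50.8 (rank 2080), and the summit was 63 bp downstream of the start site. No RFX3 peak was called in reach; the nearest RFX3 summit was 459698 bp away and had a −log10 q of 9.5.

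Arl2bp (chromosome 8, 94666600–94674457, plus strand) encodes a protein that binds ARL2 and ARL3. Its RFX1 peak (94666408–94666711) had a fold of 10.98 and a −log10 q of 44.1, and its RFX3 peak (94666516–94666666) a fold of 3.72 and a −log10 q of 13.6. The RFX1 summit was 48 bp outside the annotated gene and the RFX3 summit 8 bp inside it. Measured from the start site of the promoter table, which lies farther into the gene, they were 539 and 483 bp upstream. The summits were 56 bp apart, the widest spacing among the 3 members with both factors. The RFX3 peak had the lowest fold of the members' peaks and ranked 6666 of 9318.

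**Figure D2:**
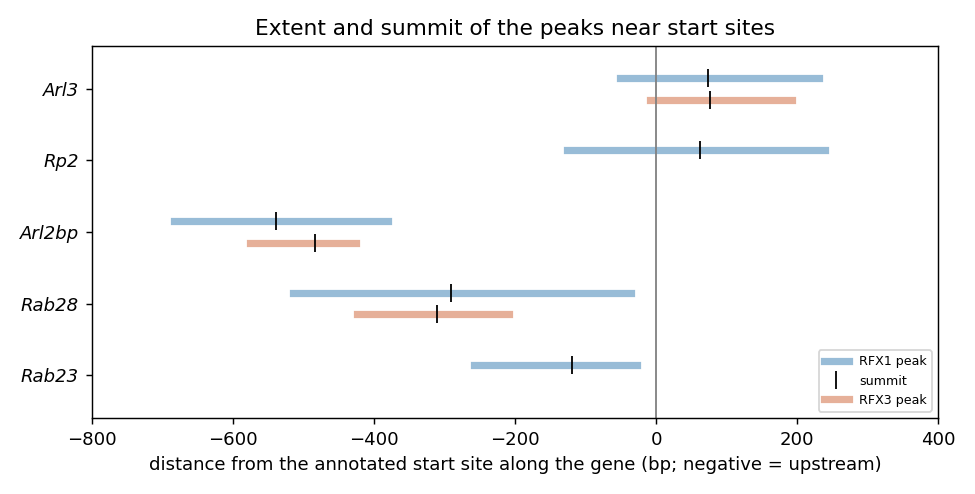
Peaks within 1 kb of a start site, drawn as bars from peak start to peak end with the summit as a black tick; the horizontal axis is the distance from the annotated start site along the gene in bp, negative upstream. At Arl3, Arl2bp and Rab28 the RFX3 bar lies within the RFX1 bar, and the RFX1 summits range from 539 bp upstream (Arl2bp) to 74 bp downstream (Arl3).

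The carrier genes Pde6d and Unc119b had no peak in reach, which was also so for 70.2% of all protein-coding genes. Pde6d (chromosome 1, 86543012–86582785), which encodes the carrier of prenylated proteins, overlaps the start of Cops7b, a COP9 signalosome subunit gene. Its nearest summits were 102666 bp (RFX1), 108434 bp (RFX2) and 108461 bp (RFX3) away. Unc119b (chromosome 5, 115122566–115134975), which encodes a carrier of myristoylated proteins, had summits 23907 bp (RFX1), 23920 bp (RFX2) and 23899 bp (RFX3) away, beyond the neighbouring gene Mlec. That site lay 706, 719 and 698 bp from the start of Mlec, which encodes the lectin malectin of the endoplasmic reticulum, with −log10 q of 70.5 (RFX1), 27.2 (RFX2) and 58.2 (RFX3). The neighbours Mlec, Cops7b and those named in the next paragraph were chosen after their values were seen.

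Of the cargo genes, Inpp5e had an RFX3 peak and Cys1 had none. Inpp5e (chromosome 2, 26396249–26409244, minus strand) encodes a prenylated phosphoinositide 5-phosphatase of the ciliary membrane. Its RFX3 peak (26418307–26418479) had a fold of 6.35 and a −log10 q of 12.98, and ranked 6841 of 9318. The summit was 9175 bp upstream of the nearest Inpp5e start site, and lay inside Sec16a, a gene for a scaffold of endoplasmic reticulum exit sites. The RFX1 and RFX2 summits nearest to Inpp5e were 36689 and 36423 bp away, 717 and 451 bp from a start site of Sec16a. Nearest to the 10 kb limit, this RFX3 summit was 9150 bp from its gene on the inside, and the RFX3 summit 23135 bp from Rab23 was the closest on the outside. Cys1 (chromosome 12, 24665833–24681886) encodes cystin, a myristoylated ciliary protein carried by UNC119B. Its nearest summits were 23259 bp (RFX1), 23246 bp (RFX2) and 23347 bp (RFX3) away, on the far side of Klf11, a Krüppel-like factor gene.

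Both Rab genes had an RFX1 peak at their start, and by −log10 q these were the highest and the lowest RFX1 peaks of the members. Rab28 (chromosome 5, 41624973–41708193, minus strand) encodes a farnesylated Rab GTPase of cilia whose loss in humans causes cone-rod dystrophy. Its RFX1 peak (41708215–41708694) had the best −log10 q of the members, 83.4, which ranked 918 of 7440, and a fold of 10.28. The RFX3 peak (41708388–41708603) had a fold of 3.90 and a −log10 q of 28.0 (rank 3292). The summits were 290 and 310 bp upstream of the start site and 20 bp apart. Rab23 (chromosome 1, 33719896–33742564, plus strand) encodes a Rab GTPase that restrains Hedgehog signalling in the mouse. Its RFX1 peak (33719638–33719869) had a fold of 5.63 and a −log10 q of 14.2, ranked 6650 of 7440, and had its summit 119 bp upstream of the start site. That −log10 q is near the lowest value in the RFX1 list, 12.03. No RFX3 peak was called in reach of Rab23, the nearest being 23135 bp away.

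Within the RFX1 list 4 of the members' 5 peaks ranked in the upper part by −log10 q and that of Rab23 near the foot. Their median −log10 q was 48.3 and their median fold 10.28, against 29.1 and 7.51 for all RFX1 peaks and 48.0 and 8.21 for the 1677 RFX1 peaks at gene ends. All but Rab23 were above the median −log10 q of the list, and none was in the best 10%. In the RFX3 list the 4 peaks had a median −log10 q of 20.8 and a median fold of 4.07, against 19.9 and 7.45 for all RFX3 peaks and 31.6 and 4.91 for the 1488 at gene ends. No RFX3 fold reached the median of its list. At Arl3, Arl2bp and Rab28 the RFX3 folds also lay below the median at gene ends. Folds and −log10 q come from separate peak calls, so they are ranked only within a list.

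**Figure D3:**
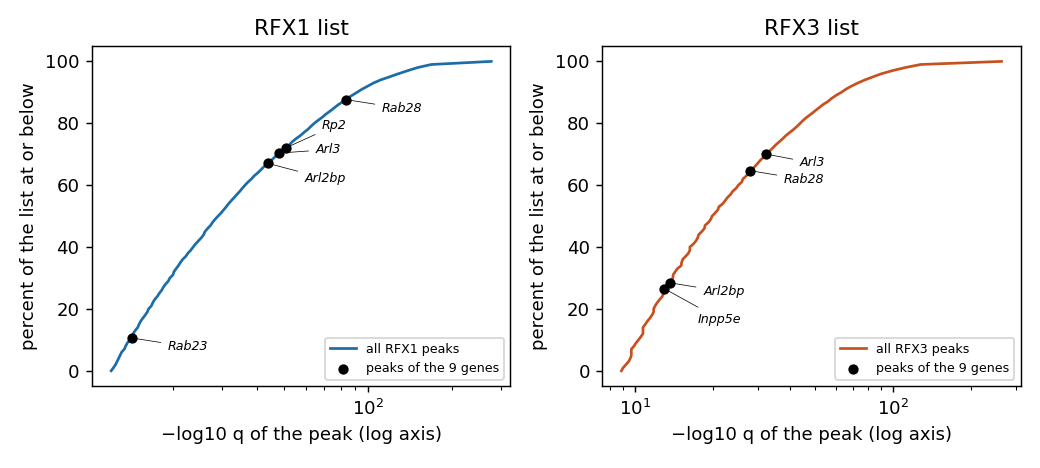
Cumulative curves of −log10 q (horizontal log axis) for all RFX1 peaks on the left and all RFX3 peaks on the right, as percent of the list at or below each value, with black points for the peaks of the 9 genes. In RFX1, Rab28 (83.4) stands highest, Rp2, Arl3 and Arl2bp lie between 44.1 and 50.8, and Rab23 (14.2) is near the foot; in RFX3, Arl3 (32.3) and Rab28 (28.0) stand above Arl2bp (13.6) and Inpp5e (12.98).

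The overlap between lists was read from the genes with a peak. Of the 5 genes with RFX1 in reach, 3 also had RFX3, against 82.0% of all protein-coding genes with RFX1 in reach, and 0 also had RFX2, against 23.7%. Of the 6523 RFX1 peaks ranked at or below that of Rab28, 70.7% lay in a merged region with an RFX3 peak and 8.14% in one with an RFX2 peak. Of the 4 genes with RFX3 in reach, 3 also had RFX1, against 80.5% of genes. Of the 6527 RFX3 peaks ranked at or below that of Arl3, 45.4% lay in a merged region with an RFX1 peak. With so few members these fractions are given as counts and were not tested.

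The X-box was looked for in the 11 promoter windows of the 9 genes, from 250 bases before to 50 after the start site, as the half-site GTTGCC, 2 bases of any kind and GGCAAC, its reverse complement. The palindrome reads alike on both strands. A match of at least 10 of its 12 fixed letters was found in 0 member windows, against 2.85% of all 32851 windows. Those windows belong to 27025 genes, a larger set than the 21887 protein-coding genes used for the peak counts. Of the 1281 windows that hold an RFX1 summit, 33.5% had such a match. That share is not a like comparison, since among the member windows only a window of Rab23 holds an RFX1 summit. At least 9 letters matched in 2 member windows, those of Arl2bp and Pde6d, against 14.1% of all windows. Neither of these 2 holds an RFX1 summit, and among windows that do the share was 64.2%. The half-site GTTGCC, which is part of the palindrome, was present on either strand at Pde6d, and in 12.5% of all windows. A match is a description of the letters and not a binding site, and no match says only that these letters are not in that window.

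Among the printed promoters the capitals of Rab23 were nearest to an RFX1 summit. At Rab23 a site with 8 letters was centred 13 bp from the RFX1 summit, but a second site of that window matched as many letters. In Rab28, Rp2 and Arl3 the marked sites, with 8, 7 and 8 letters, were 166, 206 and 302 bp from the RFX1 summits. Their windows held 2, 3 and 2 sites with equally many letters. Only the first of each was measured, so an equal site may lie nearer to the summit. The summits of Rab28, Rp2 and Arl3 lay outside the window by 40, 14 and 25 bp. The capitals of Rp2 and Arl3 also lay outside the RFX1 peak, while those of Rab23 and Rab28 lay within it. In all windows 8 letters were the most frequent best match (46.4%), so these capitals do not stand out from other promoters. At Arl2bp the summits were 289 bp (RFX1) and 233 bp (RFX3) outside the window, so the bases under them were not searched. Pde6d had a match of 9 letters and no peak.

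**Figure D4:**
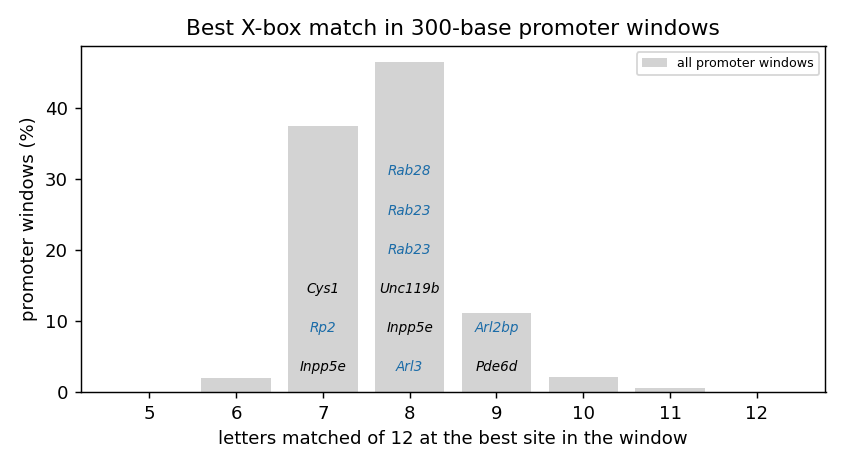
Share of all 32851 promoter windows (grey bars, vertical axis in %) by the number of letters, of 12, matched at the best X-box site, with gene names stacked at the value of each member window; blue names have an RFX1 peak in reach and black names have none, and the height of a name has no meaning. The 11 member windows hold 7, 8 or 9 matched letters, with Arl2bp and Pde6d at 9.

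The wider pathway was read from 48 further genes in 5 lists. RFX1 was in reach of 24 of them, RFX3 of 25 (52.1%) and RFX2 of 6 (12.5%). The shares of all protein-coding genes were 24.9% (RFX1), 25.3% (RFX3) and 5.93% (RFX2). No list was in reach of 22 of the 48, against 70.2% of all protein-coding genes. Among 11 other Arf and Arl GTPases and their regulators, 6 had RFX1, 2 had RFX2 and 7 had RFX3. Arl6, the Arf-like GTPase that recruits the BBSome coat, had all 3 within 200 bp of its start site, with −log10 q of 141.5, 39.3 and 96.6. Elmod2, a GTPase-activating protein for ARL2, also had all 3 (63.2, 40.7 and 64.3). Elmod1, of the same family, had RFX1 (80.0) and RFX3 (24.6), and so did Asap1, an Arf GTPase-activating protein gene (57.8 and 47.4). The best Asap1 summits were inside the gene, 56386 bp (RFX1) and 56425 bp (RFX3) from its nearer end. Arl2, which like ARL3 acts on the carriers, had none.

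Among 18 ciliary Rab and Rab-like GTPases and their regulators, 8 had RFX1, 8 had RFX3 and 3 had RFX2. No list was in reach of 10 of the 18, against 70.2% of all protein-coding genes. Those without a peak in reach included the vesicle Rabs Rab8a, Rab8b, Rab10 and Rab11a, whereas Rab11b had an RFX1 summit at 6 bp and an RFX3 summit at 31 bp from the start site (−log10 q 43.8 and 17.8); Rab11b and the genes without a peak that are named here and in the other lists were picked after their values were seen. Peaks of all 3 lists were in reach of Ift22 and Cplane2 (Rsg1), both Rab-like GTPase genes, and of Rab35. The Ift22 summits were 39, 24 and 20 bp from a start site in the RFX1, RFX2 and RFX3 lists, at ranks 164, 409 and 950 by −log10 q. Those of Cplane2 were 20, 42 and 17 bp away at ranks 188, 242 and 377. The best Rab35 peaks lay beyond the gene, 5968 bp (RFX1), 5976 bp (RFX2) and 6004 bp (RFX3) from its nearer end. From the nearest Rab35 start site they were 21139, 21147 and 21175 bp away. RFX1 and RFX3 without RFX2 were in reach of Rab3ip, the exchange factor gene for RAB8 (53.1 and 81.2). The same held for the Rab-like genes Rabl2 (73.9 and 39.2) and Ift27 (69.2 and 21.8). It also held for Evi5l, a Rab GTPase-activating protein gene (91.0 and 27.1). Evi5l had 3 RFX1 and 3 RFX3 peaks in reach, and only the best of each list is placed here. The best RFX1 summit was 400 bp from a start site and the best RFX3 summit 9441 bp beyond the gene. The positions of the other peaks were not compared.

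Lipid-modifying enzymes and other lipidated cargo factors were the list with the lowest percent of genes in reach of RFX1 and of RFX3. Of its 10 genes 2 had RFX1, 3 had RFX3 and 0 had RFX2, which is close to the background share. Unc119, the paralogue of Unc119b, and Nmt1, an N-myristoyltransferase gene, had none, while Nmt2 had RFX1 (61.3) and RFX3 (27.6) 3922 and 3972 bp from its nearer end. These Nmt2 summits were far from its nearest start site, at 48587 and 48637 bp. Of 4 phosphoinositide enzyme genes 3 had RFX1 and 2 had RFX3. Inpp5b, a 5-phosphatase gene like Inpp5e, had RFX1 (66.5) and RFX3 (78.0) 1270 and 1236 bp beyond its nearer end. The Inpp5b summits were 60931 and 60897 bp from its nearest start site. All 5 genes listed as planar polarity effectors had RFX1 and RFX3, as did 4464 of all 21887 protein-coding genes. Of these Intu had all 3 lists, with summits 40, 46 and 47 bp from a start site (ranks 1020, 1002 and 429 by −log10 q), and Fuz (ranks 1056 and 1137) and Tbc1d32 (ranks 1246 and 2128) had RFX1 and RFX3.

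**Figure D5:**
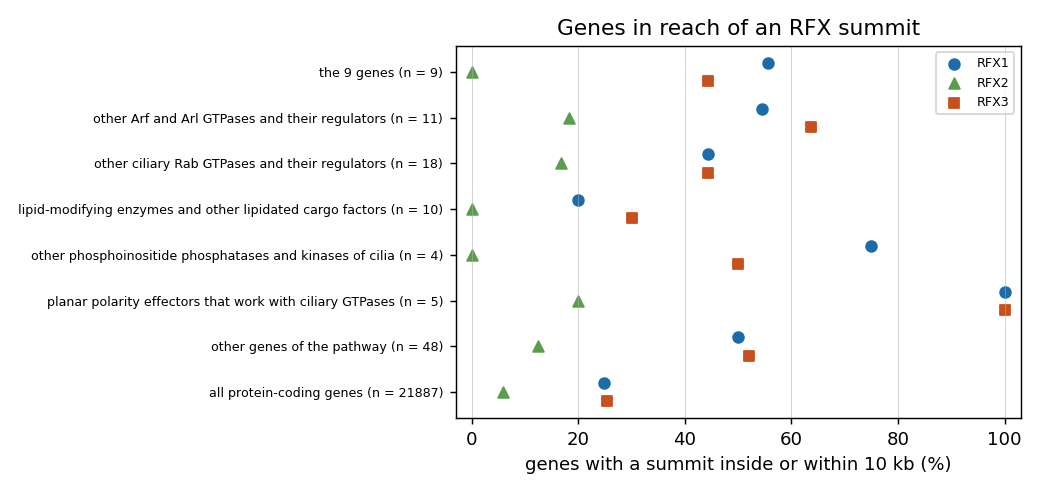
Percent of genes (horizontal axis) with an RFX1, RFX2 or RFX3 summit inside the gene or within 10 kb, for the 9 genes, the 5 further lists, their sum and all protein-coding genes. RFX1 is in reach of 5 of the 9 genes, RFX2 of 0 and RFX3 of 4, and all protein-coding genes stand at 24.9%, 5.93% and 25.3%.

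By the rank of its best peaks Rab28, the member with the best RFX1 peak, was most like Jun, A630095N17Rik and Iqce. The measure was the Euclidean distance in log10 rank over the RFX1 and RFX3 lists, among the 3179 protein-coding genes with these lists and without RFX2 in reach. The distances were 0.0586, 0.0627 and 0.0672, and the RFX1 ranks were 855, 1029 and 891.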

How the data were processed

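ChIP-seq peaks of RFX1, RFX2 and RFX3 were read from 3 lists, each already merged over 2 samples; no list for an input sample was used here. Per the submitters' processing notes, MACS2 2.0.10.20130520, Bowtie 0.12.7, CASAVA 1.8.2 and the build GRCm38 were used; no role is stated for any of them. The rule for a reproducible peak and the control samples are not stated either. The deposited fold enrichment is the authors' ratio of ChIP signal to background for a peak, as the narrow-peak layout defines that column. The deposited −log10 q is the q-value of the peak on a −log10 scale, and the deposited summit offset, another value of the authors, gave the summit.

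Summits were assigned to genes of the RefSeq table of GRCm38.p6 with Python 3.11.15 and pandas 2.3.3. Start sites and strands came from the RefSeq promoter table. Peaks overlapped when they shared at least 1 bp. Assignment, merging and the motif search were tested on simulated data. The motif test checked the number of matched letters and not the position of the match. All 9 members and 56 of 57 genes in all matched by symbol, and 1 by synonym (Rsg1, named Cplane2). The members and gene lists were chosen with earlier results of these data known, and 1 further member is not reported here. All 9 were named, as were further pathway genes with all 3 lists in reach or with the 10 best peaks among the rest. Other windows, shorter lists, other merging rules and other motif limits were tried.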

Additional observations from a re-analysis of the deposited data

How the results depend on the processing

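With replicates merged by the authors no sample could be left out, and depth is unknown, so weaker peaks cannot be told from missing ones. No paired analysis was possible because each list holds no separate values for its replicates. Of 32 alternatives over 7 counts, 23 stayed within 1.5 times the reported count. With a window of 50 kb, 8 members had an RFX1 peak, 3 had an RFX2 peak, 7 had RFX3 and 3 had all 3 lists, since a wider window takes in more distant peaks. With the better-scoring 50% of each list, 2 members had RFX3. With each list shortened to the length of the RFX2 list, 1 member (Rab28) had RFX1 and 0 had RFX3, so the counts rest on peaks of lower rank. Shares of all protein-coding genes are not given for the wider window or the shortened lists. These member counts therefore cannot be set against a background. At least 9 matched letters gave 2 members with an X-box match, and the half-site gave 1, against 0 at 10 letters. The 5 members with a summit at a gene end stayed 5 at 500 bp, at 2 kb and, in an alternative chosen after seeing the data, within 1 kb of a RefSeq start site.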
